A study of Mus musculus with 18 samples.

Results

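The response of Prep+/- bone marrow-derived macrophages (BMDMs) to interleukin-4 and interleukin-13 was measured by bulk RNA-seq in 6 of the 18 libraries of the study. They comprised all 3 libraries of unstimulated cells (M0) and all 3 of cells given both cytokines (M2), chosen by genotype and treatment as the sample labels give them. Prep encodes prolyl endopeptidase, a serine peptidase that cleaves short peptides after proline, and the study compared whole-body knockout mice (Prep-/-) with their heterozygous littermates (Prep+/-), both on a C57BL6/J background. Bone marrow cells from the femora were grown for 7 days with 50 ng/ml M-CSF, a growth factor that turns marrow precursors into macrophages. M2 cells were then given IL-4 and IL-13, each at 20 ng/ml, over 24 h. M0 cells received nothing, and M1 cells received 50 ng/ml LPS, a bacterial cell wall component. Each of the 6 groups, 1 genotype in 1 state, held 3 libraries that the study calls biological replicates. Every cell described below therefore carried 1 disrupted Prep allele unless it was Prep-/-, and wild-type cells were not analysed here.

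IL-4 and IL-13 are cytokines of helminth infection, allergy and tissue repair. Both bind receptors that contain the IL-4 receptor alpha chain, the receptors activate Janus kinases, and these phosphorylate the transcription factor STAT6, which enters the nucleus and drives the alternative or M2 programme of macrophages. That programme is known for arginase, chitinase-like and resistin-like secreted proteins, lectins that bind mannose and galactose, chemokines of type 2 immunity, and the fusion of macrophages into giant cells.

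Values per library are normalised counts, that is, counts divided by the library's effective size (its total times its TMM scaling factor) and brought to a common library size. Fold changes are on the log2 scale with their standard error (SE), and adjusted p-values come from edgeR's quasi-likelihood test over all genes tested. A gene was called, and is said to have risen or fallen, when its adjusted p was under 0.05 and its fold change over 1.5. The 6 libraries held between 19068237 and 21691155 counts, with 13434 to 13547 genes detected. Prep itself stood at 638, 739 and 900 normalised counts in M0 and at 799, 810.4 and 851 in M2, which was not called (log2 fold change 0.11 ± 0.16, adjusted p = 0.672). In the Prep-/- libraries of the same states, used below for comparison, it stood at 42.2, 42.5 and 31.3 in M0 and 68.1, 50.8 and 60.9 in M2. Of the 115 genes named by rule below and placed on the annotation, 57 share exon bases with another annotated gene, mostly on the other strand, and how the counting treated strand is not given in the sources used here. Arg1, for example (chr10:24791118-24803817, minus strand, GRCm39), overlaps the antisense gene Gm36172. The macrophage markers were present in all 6 libraries, and 0 of the 14 on the list were at 0 in them. Their levels were not all steady, as 1 was called higher and 5 lower in M2 (42.9%), described below. Csf1r, the M-CSF receptor, stood at 24489, 24549 and 27666 in M0 and 21951, 23867 and 19959 in M2, and Adgre1, the F4/80 antigen, at 14996, 15075 and 16827 and 18664, 22044 and 18613, neither of which was called. The Prep-/- M0 and M2 libraries numbered 3 stood apart from the other libraries of their groups. Without those 2 libraries, which also enter the shared estimate of spread, 814 genes were called higher and 1132 lower in Prep+/- M2.

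Of 12021 genes tested, 732 (6.09%) were higher and 814 (6.77%) lower in Prep+/- M2 than in Prep+/- M0, 12.9% in either direction. The median log2 fold change over all genes tested was -0.01, and its quartiles lay at -0.28 and 0.22. Rises reached further than falls. Among the higher genes 200 rose more than 4-fold and 73 more than 16-fold, against 130 and 10 among the lower genes. The 3 M2 libraries lay wholly above or wholly below the 3 M0 libraries in 1542 of the 1546 genes called, where 45.9% of all genes tested did so.

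**Figure D1:**
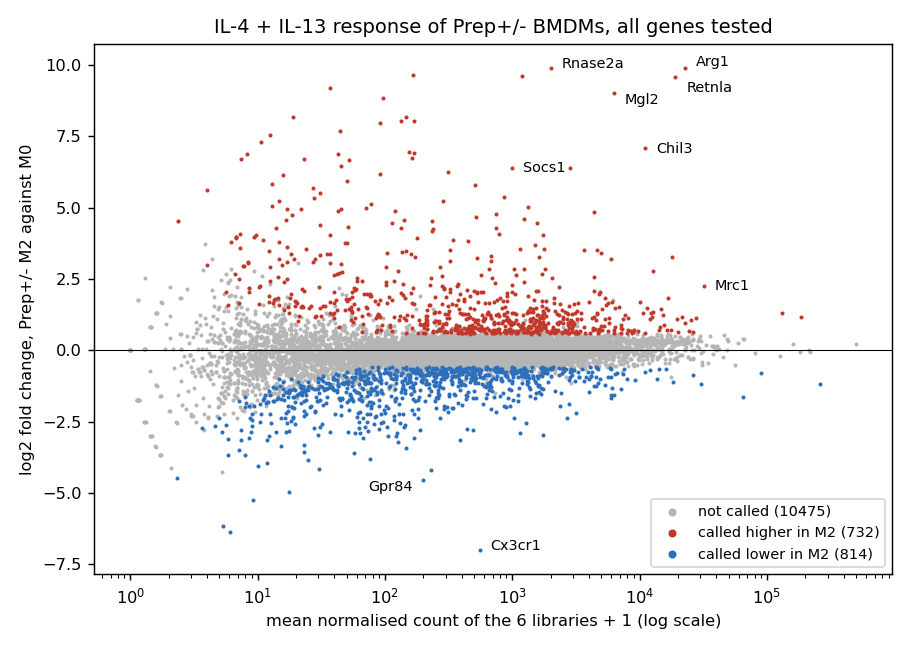
Log2 fold change of Prep+/- M2 against M0 for each of the 12021 genes tested (vertical axis) against the mean normalised count of the 6 libraries (horizontal axis, log scale), with called genes in colour. The 732 genes called higher extend to 9.89 and the 814 called lower to -7.0, and the highest named points are Rnase2a and Arg1. The place of genes at or near 0 in a group depends on the prior count of the fit.

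Several of the genes by which M2 macrophages are usually recognised were among the largest rises. Arg1, which encodes arginase 1 and turns arginine into ornithine and urea, stood at 54, 38.4 and 50.9 normalised counts in M0 and at 48436, 45335 and 41741 in M2. No M0 library came near the M2 level, and the rise was 946-fold (log2 fold change 9.89 ± 0.37, adjusted p = 1.4e-11). Retnla, the secreted resistin-like molecule alpha, went from 77.2, 50.9 and 23.8 to 44054, 42653 and 27738 (log2 fold change 9.57 ± 0.75, adjusted p = 1.19e-07), with M2 replicate 3 the lowest of its group. Chil3, the chitinase-like lectin Ym1, went from 197, 159.5 and 126 to 21032, 25473 and 19115 (log2 fold change 7.09 ± 0.40, adjusted p = 2.69e-09). Its neighbour Chil4 (Ym2) did not exceed 3 counts in any M0 library and stood at 334, 379.9 and 283 normalised counts in M2, at least 125-fold higher against a floor of 3 counts per library. The annotated transcripts of Chil3 and Chil4 were 94.3% identical over 1540 aligned bases, so reads of one could have been counted for the other.

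Mgl2 and Clec10a, paired genes for galactose-binding C-type lectins, both rose. Mgl2 stood at 34.7, 14.2 and 24.6 in M0 and 12345, 11978 and 13354 in M2 (log2 fold change 9.01 ± 0.40, adjusted p = 1.14e-10), and Clec10a at 372, 257 and 202 and 3176, 3040.2 and 3539 (log2 fold change 3.55 ± 0.23, adjusted p = 1.39e-08). Their transcripts shared 92.8% of bases over 851 aligned bases. Mrc1, the mannose receptor, was already present in M0 at 11566, 9633 and 12063 and reached 50825, 57730.1 and 49428 in M2 (log2 fold change 2.25 ± 0.18, adjusted p = 1.15e-07). Pdcd1lg2 encodes PD-L2, a ligand of the inhibitory T cell receptor PD-1, and stood at 2.89, 3.34 and 0.848 in M0 and at 301, 351 and 259.5 in M2 (log2 fold change 6.94 ± 0.41, adjusted p = 3.7e-09). In each of these 4 genes the lowest M2 library was above the highest M0 library. For Mgl2 and Pdcd1lg2 the rule that took the 15 largest rises required this.

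Genes were also described by lists, and the share of a list's tested members that was called is to be read against the 12.9% of all genes. Of the 34 tested members of the M2 signature list, 26 were called higher and 1 lower, 79.4% in all, and their median log2 fold change was 3.55 (again 3.55 with the genes at the floor set to their lower bound). The member that fell was F13a1, the A subunit of coagulation factor XIII, at 608, 521 and 450.4 in M0 and 192, 202 and 141 in M2 (log2 fold change -1.56 ± 0.25, adjusted p = 0.000231). Members of the list that were not called included Cd163, the haemoglobin scavenger receptor (92.6, 100.2 and 109 in M0 and 59.5, 65.7 and 64.2 in M2, adjusted p = 0.236), and Alox15, a lipoxygenase (16.4, 27.6 and 21.2 and 14.4, 9.76 and 10.4, adjusted p = 0.193). Il1rn, the IL-1 receptor antagonist, was not called either, at 356, 548 and 655 and 419, 382 and 1327 (adjusted p = 0.745), and its M2 replicate 3 stood far above the other 2 M2 libraries.

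The 250 bases before the annotated start of the 6 most strongly raised marker genes are printed here to show the sequence nearest the start of genes that moved together. They were read from GRCm39 at the canonical transcript start of the GENCODE vM39 annotation, 5′ to 3′ on the gene's own strand. Capitals mark TTCNNNNGAA (a 4-base gap, the spacing that STAT6 is known to prefer) or TTCNNNGAA (a 3-base gap, the spacing of other STAT factors), each searched on both strands, on which they read the same.
Arg1, chr10:24803517-24803766, minus strand: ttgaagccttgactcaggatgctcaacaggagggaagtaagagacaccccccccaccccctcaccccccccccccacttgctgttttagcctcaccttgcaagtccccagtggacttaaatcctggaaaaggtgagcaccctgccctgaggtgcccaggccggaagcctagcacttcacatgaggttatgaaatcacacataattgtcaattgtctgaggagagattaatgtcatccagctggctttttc
Chil4, chr3:106126824-106127073, minus strand: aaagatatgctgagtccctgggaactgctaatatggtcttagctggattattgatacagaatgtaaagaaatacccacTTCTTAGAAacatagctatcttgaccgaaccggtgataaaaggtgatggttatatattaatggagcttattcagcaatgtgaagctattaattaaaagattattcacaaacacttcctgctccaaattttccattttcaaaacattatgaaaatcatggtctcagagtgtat
Retnla, chr16:48662645-48662894, plus strand: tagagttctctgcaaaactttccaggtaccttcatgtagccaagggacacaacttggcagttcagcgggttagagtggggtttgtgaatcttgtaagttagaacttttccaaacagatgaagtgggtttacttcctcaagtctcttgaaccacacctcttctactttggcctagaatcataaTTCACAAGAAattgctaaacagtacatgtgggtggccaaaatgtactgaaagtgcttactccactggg
Mgl2, chr11:70020704-70020953, plus strand: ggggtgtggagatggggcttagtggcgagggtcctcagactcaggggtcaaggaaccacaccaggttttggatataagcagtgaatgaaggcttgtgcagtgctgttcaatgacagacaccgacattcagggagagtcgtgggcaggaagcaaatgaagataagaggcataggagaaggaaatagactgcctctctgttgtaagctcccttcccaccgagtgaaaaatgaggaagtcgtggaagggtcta
Chil3, chr3:106074881-106075130, minus strand: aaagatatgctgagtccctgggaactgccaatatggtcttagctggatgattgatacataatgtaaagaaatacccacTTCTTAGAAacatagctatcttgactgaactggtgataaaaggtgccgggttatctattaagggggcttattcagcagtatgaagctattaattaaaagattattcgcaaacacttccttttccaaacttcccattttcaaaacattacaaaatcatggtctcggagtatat
Pdcd1lg2, chr19:29388069-29388318, plus strand: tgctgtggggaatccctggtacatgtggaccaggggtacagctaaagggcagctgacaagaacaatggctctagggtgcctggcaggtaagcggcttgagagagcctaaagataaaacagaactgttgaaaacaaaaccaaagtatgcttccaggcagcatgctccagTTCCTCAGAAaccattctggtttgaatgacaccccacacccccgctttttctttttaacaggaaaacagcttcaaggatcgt
Retnla held the 4-base gap form beginning 68 bases before its start, and Pdcd1lg2 beginning 82 bases before. Chil3 and Chil4, whose upstream sequences were 91.2% identical over 251 aligned bases, both held the 3-base gap form beginning 172 bases before the start. Neither pattern was in the windows of Arg1 and Mgl2. Over the 11693 tested genes whose symbol matched exactly 1 annotated gene, 5.35% of such windows held the 4-base gap form. The share was 7.53% (54 of 717) for the windows of genes that rose and 4.48% (36 of 803) for those that fell. For the 3-base gap form the shares were 6.63%, 5.72% and 7.22%. A match is a run of letters and not evidence that a factor binds there.

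Beside the usual markers, the 15 largest rises included several other genes that were low in M0. The rule for these 15 took only genes whose M2 and M0 libraries did not overlap. Rnase2a, one of the eosinophil-associated ribonucleases of the mouse, stood at 3.86, 5.01 and 3.39 in M0 and 4401, 4172 and 3431 in M2, 947-fold higher (log2 fold change 9.89 ± 0.45, adjusted p = 1.47e-10). Msx3, a homeobox gene, went from 4.82, 1.67 and 2.54 to 2606, 2232 and 2342 (log2 fold change 9.61 ± 0.34, adjusted p = 1.4e-11), and Tmem26, a transmembrane protein gene, from 45.3, 65.1 and 89.1 to 5594, 5876 and 5498 (log2 fold change 6.4 ± 0.28, adjusted p = 1.14e-10). The M2 libraries lay close together in all 3 genes, and their separation from the M0 libraries was required by the rule. Cldn11, a tight junction claudin, was at 298, 279 and 295 in M2 and at or under 3 counts in each M0 library, at least 109.7-fold higher. Rasgrp1, an activator of Ras, was at 273, 289 and 231 and again at or under 3 counts in M0, at least 99.9-fold higher. Scn3a, a voltage-gated sodium channel subunit, stood at 0, 0 and 3.39 and 346, 375 and 284 (log2 fold change 8.02 ± 0.55, adjusted p = 2.1e-08).

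**Figure D2:**
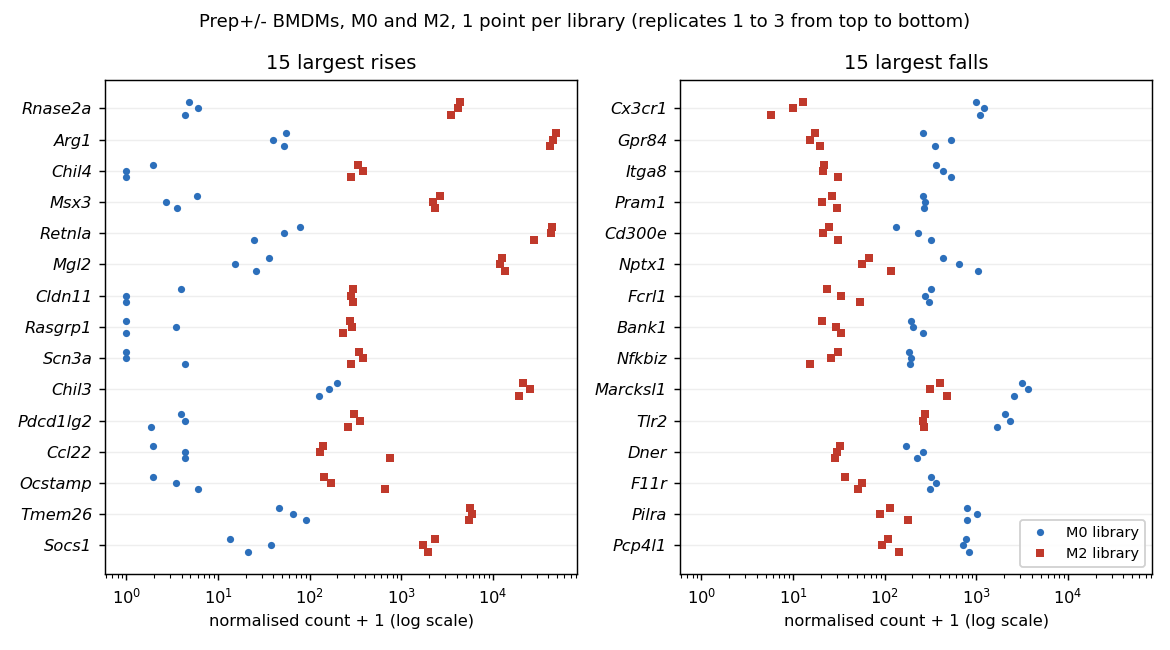
Normalised count plus 1 (horizontal axis, log scale) in each Prep+/- M0 and M2 library for the 15 top rises and the 15 top falls by the naming rule. Each point is 1 library. The groups do not overlap in any of the 30 genes, which the rule required, and M2 replicate 3 stands to the right of the other 2 M2 libraries in Ccl22 and Ocstamp.

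The receptor and the first steps of signalling moved unevenly. The ligand-binding chains fell. Il4ra, shared by both IL-4 receptor types, went from 1733, 1632 and 1779.6 in M0 to 1000.4, 1010.2 and 818 in M2 (log2 fold change -0.86 ± 0.18, adjusted p = 0.00238), and Il13ra1, which pairs with it to bind IL-13, from 132, 151 and 137 to 27.1, 21.3 and 21.7 (log2 fold change -2.58 ± 0.30, adjusted p = 1.09e-05). Every M2 library was below every M0 library in both genes. Stat6 was not called, at 3519, 4167 and 4343 and 3315, 3840 and 3615 (log2 fold change -0.16 ± 0.12, adjusted p = 0.402), nor was Il2rg, the common gamma chain (2001, 2175 and 1703 and 1672, 1845 and 1889, adjusted p = 0.604). Of the kinases Jak2 rose (446, 521 and 520 to 1222, 1345 and 1062, log2 fold change 1.29 ± 0.21, adjusted p = 0.000357).

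Inhibitors of cytokine signalling showed the largest rises on this list. Socs1, which blocks Janus kinases, stood at 12.5, 36.7 and 20.4 in M0 and 2308, 1701 and 1926 in M2 (log2 fold change 6.39 ± 0.38, adjusted p = 4.63e-09). Cish, of the same family, went from 14.5, 24.2 and 15.3 to 962, 1057 and 999 (log2 fold change 5.79 ± 0.21, adjusted p = 1.4e-11), and Socs2 from 5.79, 3.34 and 1.7 to 21.6, 47.9 and 57.6 (log2 fold change 3.54 ± 0.80, adjusted p = 0.00455). The phosphatases Ptpn6 (SHP-1, -0.64 ± 0.09) and Inpp5d (SHIP-1, -0.65 ± 0.14) fell. In total 6 of the 21 tested members rose and 4 fell, 47.6%, with a median log2 fold change of 0.07.

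Among transcription factors and chromatin regulators 18 of 39 were called higher and 3 lower, 53.8%, with a median log2 fold change of 0.43. Without M2 replicate 2, 1 was called lower. Irf4, a factor required for several M2 genes, stood at 38.6, 36.7 and 42.4 in M0 and 953, 1111 and 916 in M2 (log2 fold change 4.66 ± 0.23, adjusted p = 3.88e-10), and Egr2, a zinc-finger early growth response factor, at 57.9, 72.7 and 165 and 2151, 2136 and 2865 (log2 fold change 4.59 ± 0.36, adjusted p = 1.11e-07). All 3 M2 libraries of both genes were far above M0, and M0 replicate 3 was the highest M0 library for Egr2. Bhlhe40 (3.69 ± 0.21), Batf3 (3.51 ± 0.37) and Nfil3 (3.32 ± 0.19), a basic helix-loop-helix repressor and 2 basic leucine zipper factors, followed. Maf, a large leucine zipper factor of resident macrophages, fell from 6326, 5858 and 6859 to 2902, 2495 and 2703 (log2 fold change -1.23 ± 0.19, adjusted p = 0.00017). Egr1, the immediate-early relative of Egr2, spread so widely over the M0 libraries (153, 506 and 2546) that its M2 values (339, 157 and 656) gave an adjusted p of 0.292.

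Of 26 tested genes of arginine and polyamine metabolism 7 were called higher and 1 lower, 30.8%, with a median log2 fold change of 0.24. Slc7a2, a cationic amino acid transporter, went from 83.9, 79.3 and 77.2 in M0 to 2475, 2746 and 2513 in M2 (log2 fold change 5.01 ± 0.18, adjusted p = 1.4e-11). Arg2, the mitochondrial arginase, went from 9.65, 5.01 and 1.7 to 59.5, 56.8 and 31.1 (log2 fold change 3.18 ± 0.54, adjusted p = 0.000477). Ass1, which rebuilds arginine from citrulline, rose (1.48 ± 0.24), and a near-identical copy of its transcript, 99.5% identical over 70.4% of it, exists in the annotation. Nos2, which competes for arginine to make nitric oxide and marks M1 cells, was listed at 0.965, 2.51 and 0 in M0 and 3.61, 0 and 13.2 in M2 and was not called (adjusted p = 0.447). Odc1, which turns ornithine into putrescine, was not called (1148, 1626 and 1649.8 and 1792, 1608 and 1949, adjusted p = 0.54). Azin2, an antizyme inhibitor that relieves the block on ornithine decarboxylase, rose (2.26 ± 0.20), and Smox, spermine oxidase, fell (-1.03 ± 0.12).

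C-type lectin and scavenger receptors split by member, 7 of 26 higher and 8 lower, 57.7%, with a median log2 fold change of -0.45. Those that rose included Clec7a, which is dectin-1 and binds fungal beta-glucan (907, 793 and 886 in M0, 8690.3, 8969 and 9742 in M2, log2 fold change 3.41 ± 0.25, adjusted p = 5.83e-08), and Olr1, a receptor for oxidised LDL (0, 0.835 and 3.39 and 15.3, 14.2 and 6.61, log2 fold change 2.95 ± 0.68, adjusted p = 0.0053). Those that fell included Clec4e, which is Mincle and binds a mycobacterial glycolipid (2043, 2601 and 1933 and 356, 330.2 and 452, log2 fold change -2.53 ± 0.19, adjusted p = 8.6e-08). Marco, a scavenger receptor for bacteria, fell from 1299, 1659 and 682 to 293, 353 and 176 (log2 fold change -2.15 ± 0.38, adjusted p = 0.000708), with replicate 3 the lowest library in both states. Clec12a, an inhibitory myeloid lectin (-1.57 ± 0.19), and Clec4n, which is dectin-2 (-1.55 ± 0.32), fell as well.

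Genes for antigen presentation by MHC class II rose in 7 of 14 tested members and fell in 1, 57.1%, with a median log2 fold change of 0.58. Cd74, the invariant chain, went from 663, 666 and 462 to 7121, 6789.7 and 6328 (log2 fold change 3.5 ± 0.52, adjusted p = 0.000127), and Ciita, the transactivator of class II genes, from 19.3, 9.19 and 5.94 to 76.7, 71.9 and 71.7 (log2 fold change 2.69 ± 0.56, adjusted p = 0.00262). H2-Aa, the alpha chain of I-A, stood at 72.3, 106 and 56 and 557, 494 and 394 (log2 fold change 2.62 ± 0.62, adjusted p = 0.00656), with every M2 library above M0. H2-Ab1 (2.2 ± 0.59, adjusted p = 0.0142) lost its call without M0 replicate 3 (adjusted p = 0.0687), and H2-Eb1 (2.18 ± 0.66, adjusted p = 0.0285) lost it without M0 replicate 1 or 3 or M2 replicate 1 or 2 (adjusted p = 0.0744 to 0.116). Without M0 replicate 3 the list had 4 members called higher. H2-Ob, the member that fell, belongs to H2-O, which restrains peptide loading, and lost its call without M0 replicate 1 or M2 replicate 1 or 2, so that without M0 replicate 1 or M2 replicate 2 the list had 0 members called lower. In bulk RNA, more cells that use these genes cannot be told apart from more RNA per cell, here or in any result below.

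The chemokine genes that were called rose in the CC family and fell in the CXC family. Of 13 tested CC chemokine genes 6 were called higher and 0 lower (46.2%, median log2 fold change 1.1), with 0 lower also at an unadjusted p under 0.05 and under DESeq2. Of 10 CXC chemokine genes 0 were called higher, again with 0 at an unadjusted p under 0.05 and under DESeq2, and 5 lower (50.0%, median -1.85, or -1.79 with Cxcl1 at its bound). Ccl22, a ligand of CCR4 on T helper 2 cells, stood at 0.965, 3.34 and 3.39 in M0 and 138, 129 and 741 in M2 (log2 fold change 6.93 ± 1.59, adjusted p = 0.0052), and M2 replicate 3 held several times the level of the other 2. Ccl17, the other CCR4 ligand, was 0 in all M0 libraries and 4.51, 7.1 and 9.44 in M2, too low to be tested. Ccl8, a CCR8 ligand in the mouse, was at 45.1, 47 and 38.7 in M2 and at or under 3 counts in each M0 library, at least 16.5-fold higher.

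Ccl7 and Ccl12, attractants of monocytes through CCR2, rose from 523, 1120 and 1836 to 11121, 6910.5 and 13979.5 (log2 fold change 3.2 ± 0.55, adjusted p = 0.000539) and from 41.5, 62.6 and 94.2 to 612, 374 and 772 (log2 fold change 3.14 ± 0.35, adjusted p = 6.62e-06). Ccl24, an eosinophil attractant, rose from 56.9, 20.9 and 27.1 to 143, 186 and 174 (log2 fold change 2.27 ± 0.40, adjusted p = 0.00058). The neutrophil attractant Cxcl1 was at 8.68, 13.4 and 8.48 in M0 and at 0 in all M2 libraries, at least 3.72-fold lower. Cxcl2 fell from 109, 171 and 101 to 9.92, 11.5 and 32.1 (log2 fold change -2.84 ± 0.53, adjusted p = 0.00109). Cxcl16, the ligand of CXCR6 (-2.36 ± 0.25), fell too, and part of its transcript overlaps that of Med11 on the opposite strand.

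Chemokine and chemoattractant receptors held 2 called higher and 6 lower of 17 (47.1%, median -0.55). Cx3cr1, the fractalkine receptor, had the largest fall of all named genes, from 991, 1203 and 1104 in M0 to 11.7, 8.88 and 4.72 in M2 (log2 fold change -7.0 ± 0.37, adjusted p = 1.49e-09). Ltb4r1, the high-affinity leukotriene B4 receptor, moved the other way, from 16.4, 25.9 and 11 to 191, 180.2 and 194 (log2 fold change 3.39 ± 0.45, adjusted p = 3.86e-05). Fpr2, a formyl peptide receptor, fell from 50.2, 50.1 and 39.9 to 6.31, 4.44 and 10.4 (log2 fold change -2.72 ± 0.62, adjusted p = 0.00495), and Cxcr3, a receptor of interferon-induced chemokines, from 197, 206 and 232 to 50.5, 40.8 and 44.4 (log2 fold change -2.22 ± 0.36, adjusted p = 0.000275). A near-identical partial copy of the Fpr2 transcript exists in the annotation (95.7% identical over 79.3%).

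Most called sensors of bacteria at the cell surface fell. Tlr2, the receptor for bacterial lipoproteins, went from 2052, 2341 and 1663 to 274, 263 and 269.9 (log2 fold change -2.91 ± 0.24, adjusted p = 1.68e-07), Tlr5, the flagellin receptor, from 47.3, 40.9 and 45.8 to 5.41, 2.66 and 0.944 (log2 fold change -3.83 ± 0.55, adjusted p = 9.4e-05), and Cd14, the LPS co-receptor, from 4901, 5109.6 and 5684 to 1032, 914 and 1456 (log2 fold change -2.21 ± 0.20, adjusted p = 6.06e-07). All M2 libraries of these genes were below all M0 libraries, which for Tlr2 the rule that took the 15 largest falls required. Tlr4, the LPS receptor itself, rose from 1997, 2196 and 2407 to 3654, 3901 and 3649 (log2 fold change 0.76 ± 0.12, adjusted p = 0.00016). Among 22 Toll-like receptors and adaptors 2 were called higher and 6 lower (36.4%, median -0.13). Without M0 replicate 2 the number called higher was 1.

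Of 25 inflammatory cytokines and mediators 1 was called higher and 3 lower (16%, median -0.34, or 0 with 3 genes at the floor set to their bounds), beside the 12.9% of all genes. DESeq2 called 2 higher and 4 lower. Cd40, a costimulatory receptor, rose (1.25 ± 0.19), and Tnfsf9, the ligand of 4-1BB, fell (-1.69 ± 0.31). Tnf stood at 284, 549 and 565 in M0 and 66.8, 72.8 and 194 in M2 (log2 fold change -2.07 ± 0.54, adjusted p = 0.0125), and lost its call without M2 replicate 1 (adjusted p = 0.0625) or M2 replicate 2 (adjusted p = 0.0653). Il1b was low in both states (22.2, 29.2 and 20.4 and 14.4, 25.7 and 11.3, adjusted p = 0.643), and Il6 had at most 1 count in any of the 6 libraries. Nfkbiz, an atypical inhibitor of NF-kappa-B that promotes secondary inflammatory genes, fell from 182, 191 and 186 to 29.8, 24.9 and 14.2 (log2 fold change -3.01 ± 0.33, adjusted p = 5.6e-06).

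Interferon-stimulated genes showed 1 called higher and 3 lower of 38 (10.5%, median -0.27), beside the 12.9% of all genes. Usp18, which removes ISG15 and damps the interferon receptor, was the member that rose, from 146, 90.2 and 144 to 847, 501 and 483 (log2 fold change 2.27 ± 0.29, adjusted p = 2.99e-05), with M2 replicate 1 the highest. Ifitm3, an antiviral membrane protein, fell from 5294, 4768 and 4737 to 3269.9, 1838 and 1849 (log2 fold change -1.09 ± 0.21, adjusted p = 0.00141), and M2 replicate 1 was again above the other 2 M2 libraries. Without M2 replicate 1 there were 7 called lower, and without M2 replicate 2 or 3 there was 1. Those called higher numbered 3 under DESeq2 and with a replicate block.

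The 15 largest falls, taken among genes averaging 5 CPM or more whose groups did not overlap, included genes of several other kinds. Gpr84, a receptor for medium-chain fatty acids, went from 261, 533 and 355 to 16.2, 14.2 and 18.9 (log2 fold change -4.54 ± 0.49, adjusted p = 4.39e-06), and Itga8, an integrin subunit, from 359.8, 426 and 523 to 20.7, 20.4 and 30.2 (log2 fold change -4.19 ± 0.42, adjusted p = 1.89e-06). Cd300e, an activating receptor of monocytes, went from 131, 232 and 317 to 23.5, 20.4 and 30.2 (log2 fold change -3.2 ± 0.46, adjusted p = 0.000102), and F11r, the junctional adhesion molecule A, from 321, 359 and 312 to 36.1, 55.9 and 50 (log2 fold change -2.8 ± 0.33, adjusted p = 1.13e-05). No M2 library of these 4 genes reached the lowest M0 library. Pilra, an inhibitory paired immunoglobulin-like receptor, fell from 788, 1005 and 794 to 113, 87 and 178 (log2 fold change -2.78 ± 0.73, adjusted p = 0.0132) and lost its call without M2 replicate 1 (adjusted p = 0.0537) or 2 (adjusted p = 0.0639), while DESeq2 gave it no adjusted p.

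Bank1 and Fcrl1, a scaffold and a receptor best known from B cells, fell from 190, 205 and 258 to 19.8, 28.4 and 32.1 (log2 fold change -3.02 ± 0.32, adjusted p = 3.7e-06) and from 316, 272 and 306 to 22.6, 32 and 52.9 (log2 fold change -3.06 ± 0.24, adjusted p = 1.46e-07). The B cell markers summed to 3.59 to 5.66 CPM (counts scaled to a common library total) in M0 and 1.76 to 3.74 in M2, with 2 of the 5 listed markers present in the table high enough to be tested and 0 called. Their part in the fall of Bank1 and Fcrl1 was not tested. Macrophage identity genes held 1 called higher and 5 lower of 14 (42.9%, median -0.26). Beside Cx3cr1 and Cd14 those that fell were Fcgr1, the high-affinity IgG receptor (-1.76 ± 0.25), Aif1, the calcium-binding protein IBA1 (-1.61 ± 0.29), and Lyz2, lysozyme (-1.18 ± 0.19). Markers of granulocyte precursors summed to 85.6 to 109 CPM in M0 and 53.7 to 64.7 CPM in M2. Of 7 tested, 2 were called lower (28.6%), and 0 had a positive log2 fold change (median -0.75). The 2 called, Camp and Mmp8, lost their calls in 5 and 6 of the 6 fits without 1 library.

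Genes of macrophage fusion rose in 10 of 30 tested members and fell in 3 (43.3%, median 0.27). With 1 of the 6 libraries left out, 7 to 9 were called higher, and with a replicate block 12 were. Ocstamp, a membrane protein required for fusion of osteoclasts and giant cells, stood at 0.965, 2.51 and 5.09 in M0 and 143, 169 and 655 in M2 (log2 fold change 6.72 ± 1.36, adjusted p = 0.00203), again with M2 replicate 3 far above the other 2. Cdh1, E-cadherin, went from 14.5, 12.5 and 17 to 570.1, 499 and 580.4 (log2 fold change 5.22 ± 0.58, adjusted p = 5.91e-06), and Atp6v0d2, a subunit of the proton pump with a role in fusion, from 189, 269 and 429 to 7693, 9111 and 8787 (log2 fold change 4.85 ± 0.38, adjusted p = 1.34e-07). The integrins Itgb3 (168, 170.4 and 196 to 1936, 2406 and 1993, log2 fold change 3.57 ± 0.19, adjusted p = 1.44e-09) and Itgax, which is CD11c (83, 83.5 and 238 to 2259.6, 2892 and 3734, log2 fold change 4.45 ± 0.63, adjusted p = 7.58e-05), rose.

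Of 22 matrix metalloproteinase and plasminogen system genes 5 were called higher and 2 lower (31.8%, median 0.35). Mmp12, the macrophage elastase, stood at 1868, 3124 and 5135 in M0 and 22517, 24021 and 51857 in M2 (log2 fold change 3.28 ± 0.73, adjusted p = 0.00419), and Mmp13, a collagenase, at 396, 429 and 569 and 2447, 2091 and 4356 (log2 fold change 2.67 ± 0.52, adjusted p = 0.00148). Replicate 3 was the highest library of both genes in both states. Timp2, an inhibitor of these enzymes, rose (1.47 ± 0.17), and Mmp14, a membrane-bound collagenase, fell from 353, 387 and 159 to 35.2, 58.6 and 82.1 (log2 fold change -2.35 ± 0.53, adjusted p = 0.00477). With any 1 of the 6 libraries left out, 1 of these genes was called lower.

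Growth factors and matrix genes of repair held 6 higher and 5 lower of 25 (44.0%, median -0.05). Hbegf, a ligand of the EGF receptor, went from 0.965, 3.34 and 2.54 to 119, 95.9 and 325 (log2 fold change 6.19 ± 1.18, adjusted p = 0.00124), and Fn1, fibronectin, from 81, 91 and 93.3 to 1309, 1834 and 1323 (log2 fold change 4.07 ± 0.44, adjusted p = 4.75e-06). Pdgfc (1.89 ± 0.34) and Pdgfa (1.61 ± 0.36), growth factors for fibroblasts, rose. Spp1, osteopontin, fell from 88939, 97919.8 and 109045 to 29128, 26870.5 and 38208 (log2 fold change -1.65 ± 0.38, adjusted p = 0.00582). Col4a1, a basement membrane collagen, fell from 75.2, 101 and 88.2 to 5.41, 16 and 15.1 (log2 fold change -2.85 ± 0.55, adjusted p = 0.00136). Without M0 replicate 3 the list had 3 called lower.

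The collagen gene Col1a1, a stromal cell marker, was uneven across the M2 libraries. Col1a1 stood at 135, 126 and 109 in M0 and 1.8, 0 and 125 in M2, near 0 in 2 M2 libraries and at the M0 level in M2 replicate 3, and was not called (adjusted p = 0.39). The stromal markers summed to 20.9 to 23.3 CPM in M0 and 2.5 to 19.4 CPM in M2. Of 6 tested, 1 was called lower (16.7%), and 0 had a positive log2 fold change (median -1.26). The 1 called, Acta2, lost its call without M2 replicate 1 or 2 (adjusted p = 0.0546 and 0.0642). The part of the stromal markers in the changes of the matrix genes was not tested.

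Cathepsins and their inhibitors held 4 higher and 1 lower of 16 (31.2%, median 0.32). Ctsk, a collagen-degrading cathepsin, went from 151, 179 and 148 to 423, 518 and 459.6 (log2 fold change 1.55 ± 0.17, adjusted p = 4.43e-06), and Ctsz, a carboxypeptidase, from 17837, 17352 and 14005 to 35273, 34298 and 32754 (log2 fold change 1.06 ± 0.14, adjusted p = 3.4e-05). Cst7, cystatin F, which blocks several of these proteases, had the largest rise, from 22.2, 22.5 and 26.3 to 460, 467 and 430.4 (log2 fold change 4.25 ± 0.23, adjusted p = 1.57e-09). Ctsb and Ctsd, the major lysosomal cathepsins, were not called, with log2 fold changes of 0.02 ± 0.13 and -0.07 ± 0.14. Ctss had an adjusted p of 0.0276 but a log2 fold change of 0.54, under the 1.5-fold criterion. Ctsc, which activates granule proteases, fell (-0.94 ± 0.23).

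Enzymes of eicosanoid synthesis rose in 6 of 21 and fell in 6 (57.1%, median 0.07). Of the prostanoid enzymes Ptgs1, cyclooxygenase 1, went from 411, 446 and 418 to 1612, 1797 and 1651 (log2 fold change 1.99 ± 0.16, adjusted p = 1.44e-07), and Tbxas1, thromboxane synthase, rose (0.98 ± 0.16). Ptgs2, cyclooxygenase 2, was low and scattered in both states (5.79, 14.2 and 20.4 and 2.71, 7.99 and 33, adjusted p = 0.959). Hpgd, which inactivates prostaglandins, fell from 936, 517 and 523 to 276, 260.1 and 117 (log2 fold change -1.59 ± 0.45, adjusted p = 0.0201). It lost its call without M0 replicate 1 (adjusted p = 0.0906) or M2 replicate 3 (adjusted p = 0.0932). Of the leukotriene enzymes Alox5, 5-lipoxygenase, fell from 307, 372 and 281 to 103, 94.1 and 81.2 (log2 fold change -1.79 ± 0.34, adjusted p = 0.00117), and Mgst2, a microsomal glutathione transferase that can make leukotriene C4, from 126, 117 and 112 to 28.9, 24 and 22.7 (log2 fold change -2.23 ± 0.36, adjusted p = 0.000307). Without M2 replicate 3 the number that fell was 3.

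In fuel metabolism the called genes of fatty acid oxidation and lipid uptake rose, and those of glycolysis mostly fell. Fatty acid oxidation and lipid uptake had 5 of 29 called higher and 0 lower (17.2%, median 0.27), with 0 lower also at an unadjusted p under 0.05 and under DESeq2. They were led by Fabp4, a fatty acid carrier (302, 306 and 271 to 1829, 1669.7 and 1978, log2 fold change 2.64 ± 0.27, adjusted p = 2.45e-06), and Ppargc1b, a coactivator of mitochondrial genes (61.7, 41.8 and 56.8 to 206, 222 and 214, log2 fold change 2.0 ± 0.21, adjusted p = 3.38e-06). Without M0 replicate 3 the number was 3. Cpt1a, which carries fatty acids into mitochondria, was not called (0.02 ± 0.17, adjusted p = 0.951). Glycolysis had 2 of 23 called higher and 7 lower (39.1%, median -0.33), among them Aldoc, an aldolase (1058, 1102 and 1106 to 261, 273 and 250.1, log2 fold change -2.06 ± 0.18, adjusted p = 4.67e-07), and Pfkl, a phosphofructokinase (-0.97 ± 0.20). The 2 called higher were 0 without M0 replicate 2 and 1 without M2 replicate 3. Cholesterol synthesis had 0 of 23 called higher (0 at an unadjusted p under 0.05 and under DESeq2) and 4 lower (17.4%, median -0.41), and leaving out 1 library brought the 4 down to 1 (M2 replicate 2), 2 (M2 replicate 1 or any M0 replicate) or 3 (M2 replicate 3).

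Cell cycle genes lay slightly below M0 without most passing the test. All 38 tested mitosis genes had a negative log2 fold change (median -0.51), and 1, Cenpe, was called (2.63%). The number called was 0 with any 1 of the 6 libraries left out, 4 under DESeq2 and 8 with a replicate block, and 11 had an unadjusted p under 0.05. Mki67, the proliferation antigen, stood at 9920.5, 10630.1 and 11799.9 in M0 and 7105, 8083 and 7017 in M2 (log2 fold change -0.54 ± 0.26, adjusted p = 0.175). Of 43 genes of G1/S and DNA replication 5 were called lower and 0 higher (11.6%, median -0.38), with 1 higher at an unadjusted p under 0.05 and 0 under DESeq2. That count was 3, 1 and 2 without M0 replicates 1, 2 and 3, was 1, 2 and 1 without M2 replicates 1, 2 and 3, and was 8 under DESeq2 and with the block.

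**Figure D3:**
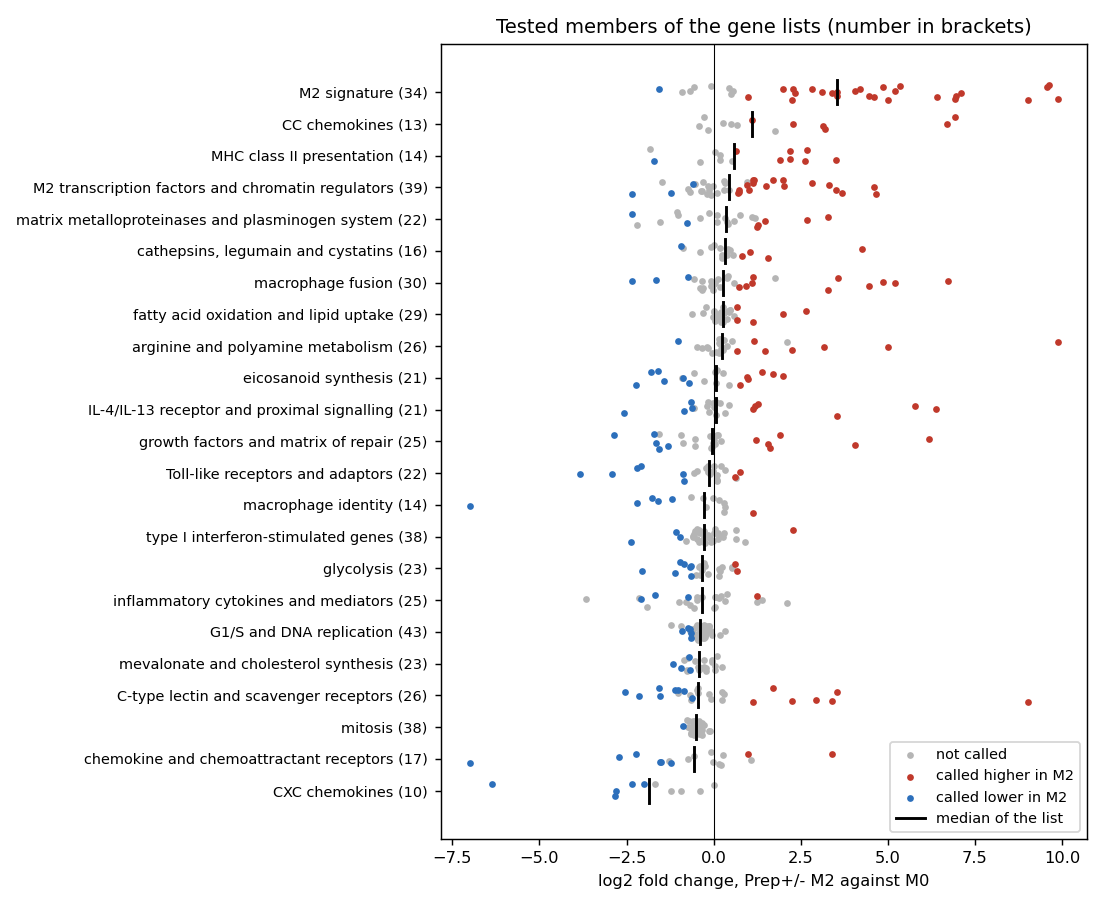
Log2 fold change of Prep+/- M2 against M0 (horizontal axis) of each tested member of the 23 gene lists, with a vertical tick at each list's median and called members in colour. The M2 signature list has its median at 3.55, while the mitosis list, at -0.51, has 1 coloured point.

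M2 and M1 cells of the same genotype were also compared directly, without M0, and 37.3% of genes tested were called. Among the genes above, Arg1 was higher in M2 than in M1 (log2 difference 3.98 ± 0.27, adjusted p = 4.43e-09), and so were Retnla (9.95 ± 0.77, adjusted p = 1.79e-08), Mgl2 (9.79 ± 0.42, adjusted p = 2.11e-11) and Mrc1 (4.42 ± 0.19, adjusted p = 2.31e-11). Some genes that rose in M2 stood higher still after LPS. Ccl7 was lower in M2 than in M1 (log2 difference -2.3 ± 0.53, adjusted p = 0.00165), as were Usp18 (-3.09 ± 0.28, adjusted p = 1.28e-07), Ass1 (-2.03 ± 0.24, adjusted p = 2.24e-06) and Jak2 (-1.05 ± 0.21, adjusted p = 0.000478). For Rasgrp1 (0.03 ± 0.24, adjusted p = 0.918) and Slc7a2 (-0.32 ± 0.14, adjusted p = 0.0695) the difference between M2 and M1 was not called. Il4ra was lower in M2 than in M1 (-3.03 ± 0.19, adjusted p = 1.42e-09), and its level was 7936, 7001 and 8113 in the M1 libraries.

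Whether the response was particular to Prep+/- cells was tested by its difference from the response of Prep-/- cells, as an interaction in the same fit. A difference was called for 1041 genes (8.66% of those tested), 162 of the 732 genes that rose and 127 of the 814 that fell. This number depended on single libraries and was 502, 555, 557 and 609 without M0 replicate 2, M0 replicate 3, M2 replicate 1 and M2 replicate 2 of Prep+/-. The genes named in the next paragraphs as differing kept that call with each of the 12 libraries left out in turn, unless stated. Most of the response was called in both genotypes, whose libraries are separate. Of the genes called higher, 559 were among the 1767 called higher in Prep-/- (76.4% and 31.6% of either list), and of those called lower, 597 were among the 1869 called lower in Prep-/- (73.3% and 31.9%). Only 2 genes higher in Prep+/- M2 were called lower in Prep-/- M2, and 5 lower genes were called higher. These counts are to be read against all 12021 genes tested, of which 1767 were called higher and 1869 lower in Prep-/-.

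Several lectin and regulator genes had a larger log2 change in Prep+/- cells. The change of Clec10a was 3.55 in Prep+/- and 0.74 in Prep-/- (difference -2.82 ± 0.30, adjusted p = 6.66e-05). Its Prep-/- libraries stood at 3089, 2251 and 2868 in M0, all above the Prep+/- M0 libraries, and at 5312, 5330.3 and 3051 in M2. For Mgl2 the changes were 9.01 and 6.1 (difference -2.91 ± 0.45, adjusted p = 0.00132), and for Mrc1 2.25 and 0.85 (difference -1.4 ± 0.24, adjusted p = 0.00266). Irf4 (4.66 and 3.29, difference -1.37 ± 0.29, adjusted p = 0.00855) and Cish (5.79 and 4.38, difference -1.4 ± 0.27, adjusted p = 0.00578) were of this kind, as was Usp18 (2.27 and 0.26, difference -2.01 ± 0.40, adjusted p = 0.00617). The Prep-/- M0 libraries lay above those of Prep+/- in each of the other 5 genes too, at 209, 114 and 80.1 for Mgl2, 17017, 18582 and 20166 for Mrc1, 158, 119.6 and 121 for Irf4, 74.3, 62.9 and 63.5 for Cish and 576, 322 and 418 for Usp18. In M2, the Prep-/- libraries lay below those of Prep+/- for Mgl2 (8630.3, 10554 and 8503) and Mrc1 (33911, 40849 and 25609.7), above them for Irf4 (1140.3, 1223 and 1519.6) and Cish (1583, 1478 and 1126), and overlapped them for Clec10a and Usp18 (606, 571 and 394). For Cd74 the changes were 3.5 and 1.0 (difference -2.5 ± 0.67, adjusted p = 0.0288), a call that was lost without any 1 of Prep+/- M0 replicate 2 or 3, M2 replicate 1 or 2, or Prep-/- M2 replicate 3, with differences from -2.87 to -1.11 over the libraries left out. Its Prep-/- M0 libraries stood at 23436, 3908 and 4088, all above those of Prep+/-, with replicate 1 far above the others.

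Other genes rose less in Prep+/- cells than in Prep-/- cells. Slc7a2 rose by 5.01 against 6.64 (difference 1.63 ± 0.24, adjusted p = 0.00104), Bhlhe40 by 3.69 against 5.38 (difference 1.68 ± 0.28, adjusted p = 0.00203) and Tmem26 by 6.4 against 8.18 (difference 1.78 ± 0.39, adjusted p = 0.0101). Their Prep-/- M0 libraries lay below those of Prep+/-, at 38.1, 31 and 31.3, at 116, 83.3 and 112 and at 37.1, 13.3 and 15.6. The lipid genes Fabp4 (2.64 against 4.49, difference 1.85 ± 0.36, adjusted p = 0.00611) and Ppargc1b (2.0 against 3.27, difference 1.27 ± 0.29, adjusted p = 0.0139) were of this kind, as was Pparg, a fatty acid-sensing nuclear receptor named here after its values were seen (2.03 against 3.16, difference 1.13 ± 0.25, adjusted p = 0.0101). Ctsk rose by 1.55 against 2.73 (difference 1.18 ± 0.23, adjusted p = 0.00622). F13a1, which fell in both, fell less in Prep+/- (-1.56 against -3.14, difference -1.58 ± 0.34, adjusted p = 0.0101). Its Prep-/- M0 libraries, at 2034, 2054 and 976, lay above those of Prep+/-, at 608, 521 and 450.4. In M2 the genotypes overlapped, at 209, 195 and 170 in Prep-/- and 192, 202 and 141 in Prep+/-. For Arg1 (-0.72 ± 0.47, adjusted p = 0.36), Chil3 (0.50 ± 0.45, adjusted p = 0.521) and Retnla (1.82 ± 0.85, adjusted p = 0.19) the difference was not called.

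**Figure D4:**
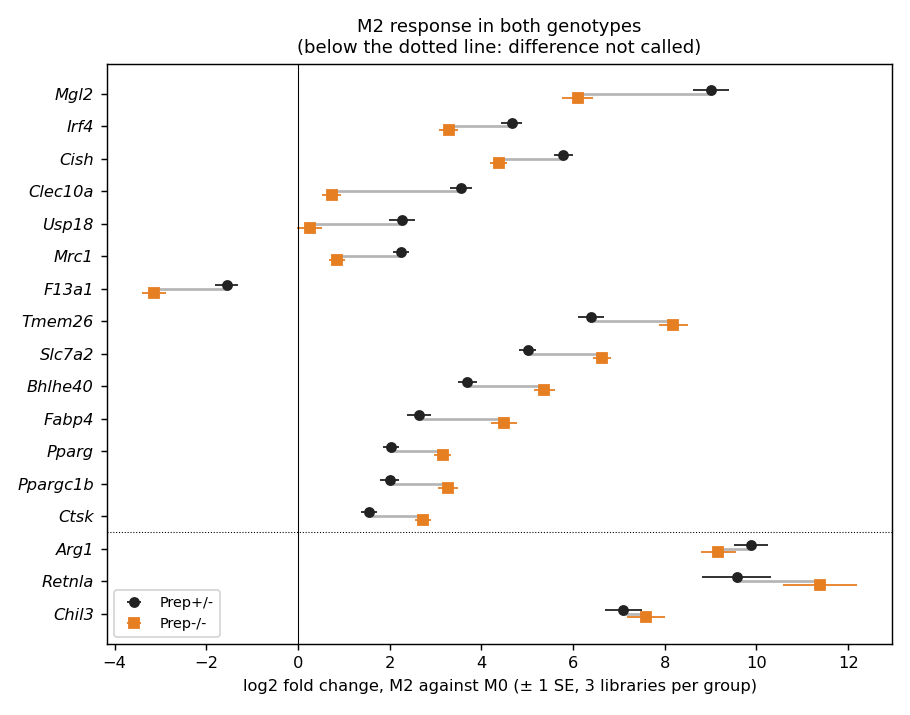
Log2 fold change of M2 against M0 (horizontal axis) in Prep+/- and Prep-/- BMDMs for 14 named genes whose response differed between the genotypes with each library left out, and for Arg1, Chil3 and Retnla, with bars of 1 standard error. Lines join the genotypes, and the Prep+/- point lies to the right for Clec10a, Mgl2, Mrc1, Irf4, Cish, Usp18 and F13a1 and to the left for Slc7a2, Bhlhe40, Tmem26, Fabp4, Ppargc1b, Pparg and Ctsk.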

How the data were processed

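RNA was measured in BMDMs of 2 genotypes in 3 states, 3 libraries per group, and libraries were grouped by the genotype and treatment in the sample labels. Total RNA was extracted with TRIzol and libraries were made with a stranded mRNA kit. The authors used Trimmomatic 0.36 for trimming, HISAT2 2.2.1.0 for alignment to GRCm39 (both named in the submitters' processing notes) and stringtie for assembly. They deposited raw counts per gene, whole numbers without normalization, with 16314 gene symbols as rows and the 18 libraries as columns. The annotation release and the handling of strand and of reads that match several genes are not given in the sources used here. Every column matched 1 sample by its name.

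From the counts, genes were kept with filterByExpr (12021 genes), libraries were scaled by TMM (factors 1.08 to 1.2 in the 6 libraries compared), and 1 coefficient per group was fitted to all 18 libraries with edgeR 4.0.16 (glmQLFit and glmQLFTest under R 4.3.3 with limma 3.58.1). P-values were adjusted by Benjamini-Hochberg. Calls needed an adjusted p under 0.05 together with a fold over 1.5. The study's own tool, DESeq2 (1.42.0), was run as an alternative. The SE of a fold change is its size divided by the square root of the F statistic. A group with at most 3 counts in every library was treated as at a floor of 3 counts per library, and such bounds cover counting error only. The common biological coefficient of variation was 0.167. Replicates of each group differed by more than sampling noise (chi-square per degree of freedom 9.87 or more), so none was counted as a repeat. The labels only number them, the study calls them biological replicates, and what a number marks is not given in the sources used here.

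The members, gene lists and tests were chosen with earlier results of these data known. Named were Prep, the polarization markers and cathepsins the study names, the 15 largest rises and 15 largest falls among called genes whose libraries did not overlap and whose mean reached 5 CPM, and up to 5 called members of each list in each direction with members that a list is known for. Pparg was named after its values were seen. Not every gene named by the rule is reported here. Alternatives were DESeq2, RLE size factors, other filters, other fold criteria, only the libraries compared, a replicate block, leaving out each library, and, added after seeing the data, leaving out the Prep-/- M0 and M2 libraries numbered 3. Sequences came from GRCm39 and GENCODE vM39, similar transcripts were found with blastn 2.17.0 (at least 95% identity over at least 50% of a transcript), and plots were made in Python 3.11.15 (matplotlib 3.10.9). Of the tested genes, 328 whose symbol did not match exactly 1 annotated gene with a canonical transcript were left out of the motif shares.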

Additional observations from a re-analysis of the deposited data

Results flagged for a closer look

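For 30 genes named in the text, the M2 response differed between Prep+/- and Prep-/- BMDMs by edgeR's interaction test (adjusted p under 0.05 and a difference over 1.5-fold). The difference is the log2 response of Prep-/- cells minus that of Prep+/- cells. Call stability was checked with each of the 12 M0 and M2 libraries left out in turn.

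Of these calls, 15 held without any 1 library. Toward a smaller rise or a larger fall in Prep-/-, the differences were -2.82 for Clec10a, -2.91 for Mgl2, -2.01 for Usp18, -1.58 for F13a1, -1.4 for Cish, -1.4 for Mrc1 and -1.37 for Irf4, and Adgre1, which was called in neither direction in Prep+/-, differed by -1.22. Toward a larger rise in Prep-/-, they were 1.13 for Pparg, 1.18 for Ctsk, 1.27 for Ppargc1b, 1.63 for Slc7a2, 1.68 for Bhlhe40, 1.78 for Tmem26 and 1.85 for Fabp4. The Prep-/- M0 libraries of Adgre1 stood at 46422.5, 36533 and 26226, all above those of Prep+/-. Its M2 libraries overlapped between the genotypes, at 18664, 22044 and 18613 in Prep+/- and 19578.5, 21138 and 18567 in Prep-/-.

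The MHC class II genes differed by -2.5 (Cd74), -2.91 (H2-Aa), -2.7 (H2-Ab1), -2.94 (H2-Eb1) and -3.88 (H2-Ob). For all of them but H2-Ob, Prep-/- M0 replicate 1 stood far above the other Prep-/- M0 libraries. The values were 23436, 3908 and 4088 for Cd74, 3521, 518 and 427 for H2-Aa, 4934, 722 and 704 for H2-Ab1, and 2342, 330 and 267 for H2-Eb1. The call of Cd74 was lost in 5 of the 12 fits without 1 library, that of H2-Aa, H2-Ab1 and H2-Eb1 in 8 each, and that of H2-Ob in 6.

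The other genes were Il1b (-3.24, lost in 6 of 12), Rasgrp1 (-3.29, lost in 1), Fn1 (2.2, lost in 5), Ccl12 (-1.97, lost in 7), Pdgfc (-1.83, lost in 3), Fcgr1 (-1.44, lost in 1), Clec4n (-1.42, lost in 10), Clec7a (-1.13, lost in 7), Myc (2.85, lost in 8) and Maf (-1.01, lost in 2).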

How the results depend on the processing

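The counts of genes higher and lower in Prep+/- M2 were 740 and 940 under DESeq2, 703 and 864 with RLE size factors, 753 and 782 without a filter on low counts, 703 and 822 with a filter of 1 CPM in 3 libraries, and 854 and 1058 in a fit of only the libraries compared. Without a fold criterion they were 1124 and 1089, with a fold over 2 they were 459 and 477, and with glmTreat against 1.5-fold they were 374 and 298. Leaving out each library in turn gave 622 to 672 higher and 633 to 756 lower. Genes whose response differed between genotypes numbered 1041 as reported, 562 in a fit of only the libraries compared, 589 with a fold over 2, 103 with glmTreat, 1388 under DESeq2 and 502 to 1449 with each library left out. Without the Prep-/- M0 and M2 libraries numbered 3 they numbered 1089. The M2 against M1 count was 4471 under DESeq2 and 4215 to 4421 with each library left out.

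Same-numbered Prep+/- M0 and M2 libraries had deviations that correlated at 0.25, -0.08 and 0.14. For libraries of unlike number the correlations ran from -0.22 to 0.10. These few values do not settle whether the numbers mark a pairing, and the main fit used none. A replicate block within genotype gave 768 higher, 865 lower, 1029 genes whose response differed and 4484 between M2 and M1. A replicate block in only the libraries compared gave 888 and 1123. RLE factors moved the median log2 fold change by -0.02. Of the 168 genes named by rule, 161 were called, 0 reversed under any alternative and 39 lost their call without some 1 library, while 54 lost it under glmTreat. At a depth of 19068237 to 21691155 counts per library, Ccl17, Il6 and Nos2 had few counts in these 6 libraries, and the precision of their values is limited. The causes of these shifts were not tested, except that fewer genes meet a stricter fold criterion by construction.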

Other observations

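Myc and Egr1, immediate-early transcription factors, spread widely over the M0 libraries. Myc stood at 202, 505 and 918 in the M0 libraries of Prep+/- cells, while their M2 libraries held 954, 791 and 1385 (adjusted p = 0.244), and Egr1 ran over a wider range still, with M0 replicate 3 the highest library. The dendritic cell factor Zbtb46 rose from 7.72, 5.01 and 1.7 to 22.6, 12.4 and 40.6 (log2 fold change 2.38 ± 0.64, adjusted p = 0.0144) and lost its call without M0 replicate 2 or 3 or M2 replicate 3 (adjusted p = 0.0534 to 0.0936), while the other dendritic cell markers stayed low, so that the whole list summed to 0.830 to 0.996 CPM in M0 and 1.2 to 2.84 CPM in M2. Myc was named after its values were seen.

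Erythroid markers summed to 0.784 to 1.47 CPM in M0 and 0.978 to 1.25 in M2, T and NK cell markers to 1.05 to 1.15 and 0.231 to 0.555, eosinophil markers to 8.23 to 11.1 and 5.36 to 7.92, and mast cell and basophil markers to 0.0524 to 0.0958 and 0.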
